A study of Homo sapiens with 4 samples.

Results

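The genes described here are the FGF receptor genes FGFR1, FGFR2, FGFR3 and FGFR4, the receptor-like gene FGFRL1, the ligand genes FGF1, FGF2 and FGF5 and the carrier gene FGFBP1. They were taken by symbol from the deposited tables, and all 9 were found among 57879 genes. The RNA came from T24, an established human bladder carcinoma cell line, grown in RPMI with 10% serum. The control group was T24 cells with the empty vector, and the TET1-CD group was T24 cells that stably expressed the FLAG-tagged catalytic domain of TET1, the enzyme that oxidises 5-methylcytosine in DNA. Each group had 2 libraries, and an inactive form of the domain was not among them, so the presence of the domain and its activity cannot be told apart here. The labels do not say that the libraries came from separate cultures, and the p-values then measure only the spread between these libraries, which may be technical.

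Fibroblast growth factors (FGFs) are secreted or released proteins that bind receptor tyrosine kinases on the cell surface together with heparan sulfate, a sugar chain carried by matrix and membrane proteins. The bound receptor dimerises and signals through the adaptor FRS2 to the RAS and ERK pathway and to AKT, and its targets include feedback inhibitors such as the Sprouty proteins. In urothelial cancer, FGFR3 is known for activating mutations and fusions, mainly in luminal papillary tumours, and FGFR1 and FGF2 have been described mostly in cells of mesenchymal character.

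The libraries held 17442143 to 20295266 fragments. TET1 itself had 111 and 83 counts in the control libraries and 2939 and 3310 counts in the TET1-CD libraries, as labelled. The epithelial identity of the cells was checked by keratins. KRT7, the most abundant of the simple epithelial keratin genes in the list, had between 15981 and 22638 counts, and the 4 keratins summed to 40278 to 51210 counts. Of the mesenchymal markers, FN1 was the most abundant, and the 7 genes summed to 102540 to 148623 counts. The markers of differentiated urothelium were low: KRT20 was at 0 in every library and UPK1A, UPK1B, UPK2 and UPK3A had at most 6 counts, while FOXA1, the most abundant of the luminal list, had 366 to 587. Of the basal list, EGFR was the most abundant with 10849 to 14311 counts, and KRT5 and KRT6A were at 0. KRT17 of the same list had 77 and 83 counts in control and 725 and 831 in TET1-CD libraries and was called as higher, at a log2 fold change of 3.29 (adjusted p = 1.05e-07 by edgeR). The leukocyte gene PTPRC had at most 2 counts, and CD68, the most abundant of the leukocyte list, had 411 to 577. Of the endothelial list, CDH5 led with 9 to 22 counts. The fibroblast list summed to 89 and 75 counts in control libraries and to 276 and 322 in TET1-CD libraries, nearly all from COL1A1, and its other 5 genes had at most 4 counts in any library.

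FGF2 had the highest level of the 9 genes. Levels between genes are given as FPKM, that is fragments scaled to transcript length and library size, summed over the transcripts of a gene. FGF2 encodes basic FGF, a ligand of wide receptor range that leaves the cell without a signal peptide. Its FPKM was 78.34 and 76.18 in control libraries and 60.66 and 56.53 in TET1-CD libraries, and its mean FPKM was above that of 95% of the 25173 genes with a value above 0. FGF5, a secreted ligand known for its part in ending hair growth, came next with 24.85 and 21.06 in control and 25.46 and 24.49 in TET1-CD libraries. FGFBP1, a secreted protein that frees FGFs from the matrix, had 13.94 and 15.66 in control and 11.35 and 12.91 in TET1-CD libraries. Over the 4 libraries, FGF2 lay apart from FGF5, and FGF5 apart from FGFBP1.

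FGFR1 was the main signalling receptor by level. Its FPKM was 11.38 and 9.48 in control and 11.9 and 9.87 in TET1-CD libraries. FGFRL1, which binds FGFs but lacks a kinase domain, had 12.02 and 10.74 in control and 10.61 and 9.04 in TET1-CD libraries. The ranges of FGFBP1, FGFRL1 and FGFR1 overlapped, so their order is not settled by these libraries. FGF1, or acidic FGF, which can bind every FGF receptor, had an FPKM of 3.0 and 2.3 in control and 1.65 and 1.12 in TET1-CD libraries. That range overlapped with FGFR4, at 1.0 and 0.9 in control and 1.35 and 1.72 in TET1-CD libraries. FGFR3 was lower still, between 0.17 and 0.28 in the 4 libraries, from 13 to 18 counts. FGFR2 had 0 counts in all 4 libraries, and 3 counts, the limit that a count of 0 allows, would be 0.148 to 0.172 CPM, that is counts scaled to the library total. That limit covers counting error only. FGFR2 was therefore not detectable at this depth.

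**Figure D1:**
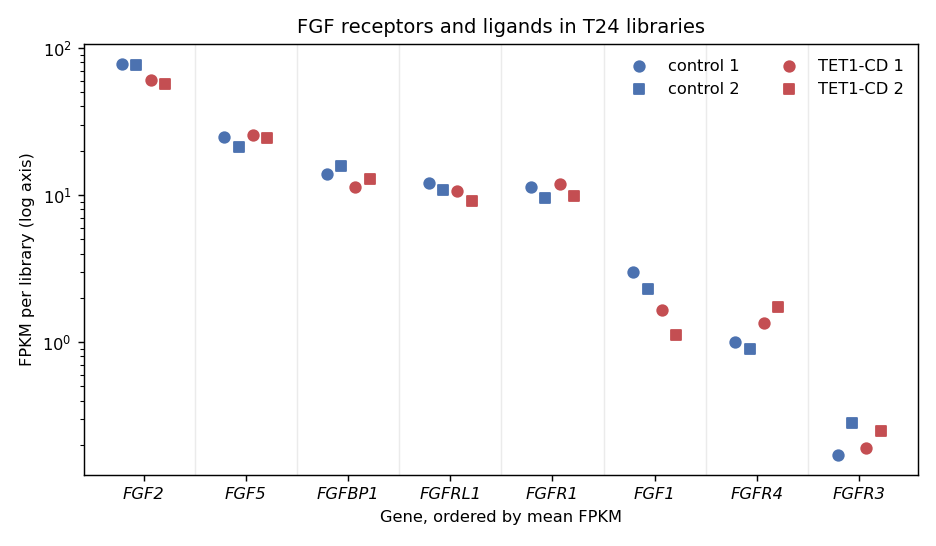
FPKM of each gene in each library on a log axis, with control libraries in blue and TET1-CD libraries in red; each point is 1 library, and FGFR2, listed at 0 in all, is left out. FGF2 stands at 56.53 to 78.34, with both TET1-CD libraries below both controls, and FGFR3 at 0.17 to 0.28.

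The CpG content before the transcript starts is shown because TET1 acts on methylated cytosine, which in human cells lies mainly in CpG sites. DNA methylation was not analysed here, so the letters say where CpG sites are and not whether they carry the mark. For each gene, the 250 bases before the start of its most abundant transcript in GENCODE release 44 were read from GRCh37, the build of the files. FGFR2 has no most abundant transcript here, being at 0 counts, and its window is that of the canonical transcript (ENST00000358487). The motif is CG, which reads alike on both strands. Among 14285 genes tested that had such a window, the median was 20 CpG sites, with quartiles of 12 and 28. FGFR2, at 0 counts, had the richest window of the 9 genes, with 42 CpG sites, and 2.29% of all windows held as many. FGFR3 followed with 41 sites, a number reached by 2.88% of windows. FGF2, FGFR1 and FGFR4 had 24 sites each, as did or exceeded 38.6% of windows, FGF5 had 22 and FGFRL1 21. FGF1 and FGFBP1 had 2 sites each, and 96.1% of windows held at least as many. The FGFBP1 window belongs to its minor transcript, since the major one was not found in that release.

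Sequences are shown for the ligand gene that changed, the receptor gene that was not detected, the CpG-poor starts of FGF1 and of a minor FGF5 transcript, and SPRY1, the feedback inhibitor gene that fell most. They run 5′ to 3′ on the strand of the gene, with CpG sites in capitals, and bases that an annotated exon covers were left off the FGFR2 and SPRY1 windows. FGF2 is at chr4:123747587-123747836 on the plus strand, FGFR2 at chr10:123357973-123358208 on the minus strand, FGF1 at chr5:142000908-142001157 on the minus strand, the downstream start of FGF5 at chr4:81189169-81189418 on the plus strand and SPRY1 at chr4:124317706-124317949 on the plus strand, all in GRCh37.
FGF2: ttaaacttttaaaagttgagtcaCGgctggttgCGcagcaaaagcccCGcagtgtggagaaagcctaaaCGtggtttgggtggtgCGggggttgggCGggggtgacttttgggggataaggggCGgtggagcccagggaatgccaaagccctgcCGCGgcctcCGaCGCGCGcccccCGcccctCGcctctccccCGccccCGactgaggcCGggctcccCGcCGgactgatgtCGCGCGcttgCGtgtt
FGFR2: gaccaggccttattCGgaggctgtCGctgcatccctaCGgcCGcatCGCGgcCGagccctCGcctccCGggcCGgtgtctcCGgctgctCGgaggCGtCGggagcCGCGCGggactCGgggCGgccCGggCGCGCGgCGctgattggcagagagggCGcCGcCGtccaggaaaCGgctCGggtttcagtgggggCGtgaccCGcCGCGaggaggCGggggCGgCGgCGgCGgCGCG
FGF1: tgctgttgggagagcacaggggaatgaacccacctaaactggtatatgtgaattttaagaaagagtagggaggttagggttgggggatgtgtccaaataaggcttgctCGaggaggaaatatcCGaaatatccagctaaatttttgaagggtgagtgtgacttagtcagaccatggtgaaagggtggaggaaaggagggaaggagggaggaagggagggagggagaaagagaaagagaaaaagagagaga
FGF5, downstream start: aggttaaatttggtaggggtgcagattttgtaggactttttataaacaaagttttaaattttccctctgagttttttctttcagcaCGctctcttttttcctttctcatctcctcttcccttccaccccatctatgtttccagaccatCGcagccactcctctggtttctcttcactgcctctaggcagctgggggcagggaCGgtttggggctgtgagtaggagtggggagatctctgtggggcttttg
SPRY1: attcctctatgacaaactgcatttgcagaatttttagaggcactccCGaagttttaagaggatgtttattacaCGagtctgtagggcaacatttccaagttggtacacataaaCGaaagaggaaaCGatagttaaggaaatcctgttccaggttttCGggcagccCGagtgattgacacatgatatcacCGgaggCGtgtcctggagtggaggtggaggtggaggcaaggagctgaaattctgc
The FGF2 window held 24 CpG sites, and the printed FGFR2 stretch of 236 bases held 40. The FGF1 window held 2, the FGF5 downstream window 3 and the printed SPRY1 stretch of 244 bases 8.

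**Figure D2:**
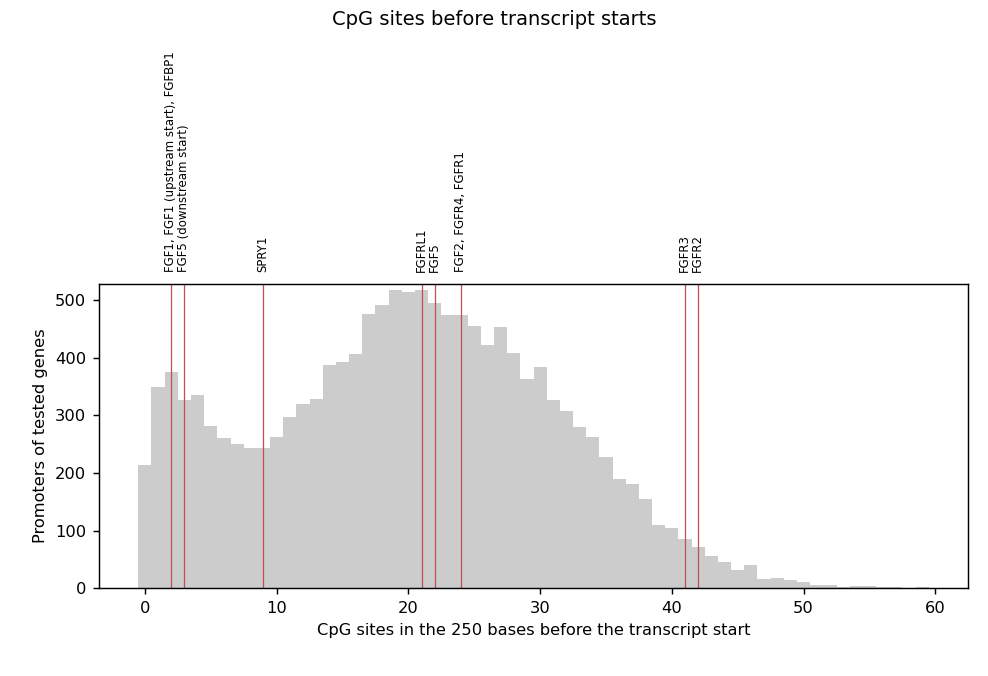
Number of CpG sites in the 250 bases before the transcript start (x axis) for 14285 tested genes, as a count of promoters (y axis), with the FGF genes and SPRY1 marked by red lines. FGFR2 and FGFR3, at 42 and 41 sites, lie at the right edge, FGF2 at 24 lies near the middle, and FGF1 and FGFBP1 at 2 lie at the left.

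FGF2 was the member whose level changed. Counts summed per gene were compared between TET1-CD and control libraries (quasi-likelihood test of edgeR), with p-values adjusted by Benjamini-Hochberg over all 14573 genes tested and called at an adjusted p of 0.05. FGF2, at chr4:123747863-123819391 in GRCh37, plus strand, had 9303 and 8095 counts in control libraries and 6082 and 6400 in TET1-CD libraries. After scaling to library size this was 463.7 ± 5.71 CPM (SD, n = 2) in control and 336.5 ± 14.3 CPM (SD, n = 2) in TET1-CD cells. Both TET1-CD libraries were below both controls. The log2 fold change was -0.46 (standard error, SE, 0.05; 95% interval -0.58 to -0.34, adjusted p = 0.000375 by edgeR), so that the level fell by 27.4%. Of the 9 genes, 8 had enough counts for a test, and FGF2 was the 1 that was called, while 19.7% of all genes tested were called in either direction and 9.61% as lower. No member changed by 2-fold with such a p, against 3.77% of all genes. The median log2 fold change was -0.11 over the 8 genes and 0.00 over all genes tested. In a bulk library, fewer cells with FGF2 transcripts and fewer transcripts per cell cannot be told apart. Marker genes were called in both directions. COL1A1 of the fibroblast list was called as higher, at a log2 fold change of 1.89 (adjusted p = 1.03e-05 by edgeR). Of the 7 mesenchymal marker genes, 6 were tested and 3 were called as lower (FN1, VIM and ZEB2). ZEB1, SNAI2 and SPARC were not called, with log2 fold changes of 0.09, 0.12 and -0.09, and TWIST1 was at 0 counts in every library. The list summed to 148623 and 127841 unscaled counts in control and to 102540 and 118771 in TET1-CD libraries, most of them from VIM and FN1, and the part of these genes in the FGF2 result was not tested.

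At its 3′ end FGF2 overlaps the antisense gene NUDT6 over 9540 bases. NUDT6 had 78 and 102 counts in control and 91 and 68 in TET1-CD libraries. Whether strand was used in counting is not stated, so fragments of the shared stretch cannot be assigned with certainty. The counts listed for NUDT6 were 0.835% to 1.49% of those for FGF2. NUDT6 fragments that were counted for FGF2 would not be in that share, so it sets no limit on them. SPRY1, a feedback inhibitor gene that was also called as lower, begins 498559 bases past the end of FGF2. The genes between FGF2 and SPRY1 were not called: SPATA5 had 600 and 465 counts in control and 580 and 571 in TET1-CD libraries.

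The other ligand genes did not pass the test. FGF1 had 112 and 76 counts in control and 62 and 66 in TET1-CD libraries. Both TET1-CD libraries were below both controls, and the log2 fold change was -0.53 (SE 0.19, 95% interval -0.96 to -0.11), with an adjusted p of 0.0787 by edgeR. The log2 fold change was -0.36 without control replicate 1 and -0.68 without control replicate 2. FGF5 had 2387 and 1728 counts in control and 2113 and 2184 in TET1-CD libraries, and the groups overlapped. Its log2 fold change of 0.09 (95% interval -0.09 to 0.27, adjusted p = 0.49 by edgeR) turned on the controls. It was 0.21 without control replicate 1 and -0.03 without control replicate 2. The upper bound of the interval corresponds to a 1.2-fold higher level. FGFBP1 had 339 and 326 counts in control and 239 and 302 in TET1-CD libraries. Its libraries did not overlap, the log2 fold change was -0.29 (SE 0.11) and the adjusted p was 0.0977 by edgeR. The log2 fold change was -0.38 without control replicate 1 and -0.21 without control replicate 2.

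Among the receptors, FGFR4 had the widest difference in fold but few counts. FGFR4, a receptor kinase best known as the partner of FGF19 in liver, had 42 and 45 counts in control and 59 and 80 in TET1-CD libraries. Its log2 fold change was 0.68 (SE 0.23, 95% interval 0.17 to 1.19), with an adjusted p of 0.0629 by edgeR, just past the threshold. The log2 fold change was 0.51 without control replicate 1 and 0.84 without control replicate 2. FGFR4 was called without a filter on low counts (adjusted p = 0.0242 by edgeR) and with a replicate block (adjusted p = 0.0494 by edgeR). It was not called under DESeq2 (adjusted p = 0.439 by DESeq2). On log2 FPKM it was not called by limma (adjusted p = 0.128 and 0.106 by limma at pseudocounts of 0.1 and 1). The log2 fold change was 0.81 without TET1-CD replicate 1 and 0.53 without TET1-CD replicate 2. FGFR1 had 785 and 651 counts in control and 701 and 825 in TET1-CD libraries. In CPM both TET1-CD libraries were above both controls, at 39.94 and 42.07 against 38.78 and 37.61, whereas in FPKM the groups overlapped. The log2 fold change was 0.10 (95% interval -0.06 to 0.26, adjusted p = 0.36 by edgeR). FGFRL1 had 736 and 563 counts in control and 554 and 543 in TET1-CD libraries, a log2 fold change of -0.22 (SE 0.09) with an adjusted p of 0.131 by edgeR. The log2 fold change of FGFRL1 was -0.14 without control replicate 1 and -0.30 without control replicate 2. FGFR3 had 14 and 17 counts in control and 13 and 18 in TET1-CD libraries, and its interval of -0.92 to 0.93 on the log2 scale was too wide to tell a change.

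In all, 6 of the 8 genes tested had TET1-CD libraries that did not overlap with the controls in CPM, 2 above and 4 below. Over all genes tested, 61.0% did not overlap, 30.8% above and 30.2% below. With 2 libraries in each group, such a lack of overlap is thus common.

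**Figure D3:**
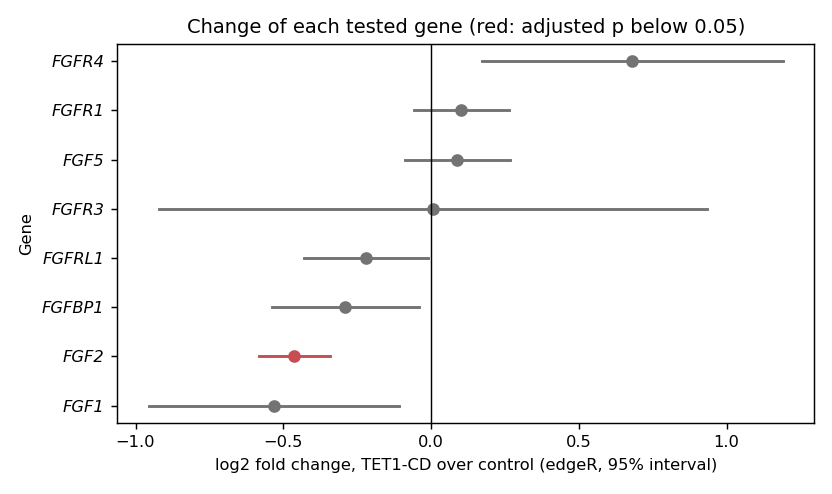
Log2 fold change of TET1-CD over control for the 8 genes tested (points) with 95% intervals from edgeR (lines); red marks an adjusted p below 0.05 over all genes. FGF2 is the 1 red gene, at -0.46 with an interval of -0.58 to -0.34, and FGFR3 has the widest interval, from -0.92 to 0.93.

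The transcripts behind these sums were compared next. The files divide the fragments of a gene between its transcripts by estimate. Shares are given as descriptions, since no test of shares was run. How often shares lie apart between the groups over all genes was not counted. In CPM, 61.0% of all genes tested did not overlap. A test of single transcripts by edgeR called 1 of 43213 transcripts, or 0.00231%, at an adjusted p of 0.05 and none of the 21 tested transcripts of these genes. At an unadjusted p under 0.05 there were 3 of theirs and 11.2% of all. FGF2 is listed with 2 transcripts. The longer (ENST00000264498, 6801 bases in GENCODE) and the shorter (ENST00000608478, 3880 bases) share their exon count of 3, and the longer extends 2772 bases further at the 3′ end. The longer codes for 288 residues from an upstream start and the shorter for 155. The longer had 7336 and 6879 counts in control and 4591 and 4952 in TET1-CD libraries, and a log2 fold change of -0.56 (SE 0.07, unadjusted p = 0.00115, adjusted p = 0.215 by edgeR). The shorter had 1967 and 1216 counts in control and 1491 and 1448 in TET1-CD libraries, a log2 fold change of -0.07 (95% interval -0.57 to 0.43). The longer transcript therefore took 78.9% and 85.0% of the FGF2 counts in control and 75.5% and 77.4% in TET1-CD libraries, lower in both. The 2772 bases at its 3′ end lie within the stretch that FGF2 shares with NUDT6. Fragments there cannot be assigned by strand with certainty, and this holds for the split between the 2 transcripts too.

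FGF5 had 3 transcripts with counts in every library. The full form (ENST00000312465, 268 residues) had 1415 and 1069 counts in control and 1423 and 1489 in TET1-CD libraries. A form without the middle exon of 104 bases (ENST00000456523, 123 residues) had 916 and 610 counts in control and 680 and 669 in TET1-CD libraries. The full form took 59.3% and 61.9% of FGF5 counts in control and 67.3% and 68.2% in TET1-CD libraries, and the form without the middle exon 38.4% and 35.3% against 32.2% and 30.6%. Both shares were apart between the groups. The third transcript (ENST00000503413) begins 1601 bases downstream of the full form, after the CpG-poor window shown above, and has no annotated coding sequence. It had 57 and 49 counts in control and 11 and 19 in TET1-CD libraries, with a log2 fold change of -1.81 (SE 0.42, unadjusted p = 0.0119, adjusted p = 0.29 by edgeR). None of the 3 transcripts passed the transcript test, and the counts of the form without the middle exon overlapped between the groups, as did those of FGF5 as a whole.

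FGF1 is listed with starts far apart. The transcript ENST00000359370, whose window of 2 CpG sites is shown above, had 86 and 60 counts in control and 52 and 63 in TET1-CD libraries. ENST00000419524, which begins 76704 bases upstream and codes for the same 155 residues, had 22 and 11 counts in control and 7 and 3 in TET1-CD libraries. The upstream start took 20% and 14.3% of FGF1 counts in control and 10.6% and 4.9% in TET1-CD libraries, from counts too low to weigh (adjusted p = 0.59 by edgeR).

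FGFR1 transcripts were grouped by the coding exons they hold. The receptor exists in a form with all 3 Ig-like loops and in a form that lacks the first, which binds FGF more tightly, and the third loop ends in alternative exons named IIIb and IIIc, of which IIIc is the usual choice in mesenchymal cells. Of 11 long coding transcripts, those with the exon of the first loop (267 bases) had 380 and 380 counts in control and 360 and 425 in TET1-CD libraries. Those without it had 338 and 242 counts in control and 297 and 372 in TET1-CD libraries. The exon was thus in 52.9% to 61.1% of the counts of these transcripts in control and in 53.3% to 54.8% in TET1-CD libraries, and the groups overlapped. Transcripts with the IIIc exon of 145 bases took 98.5% and 95.6% in control and 96.8% and 98% in TET1-CD libraries. The IIIb exon was found in a single transcript with 11 and 27 counts in control and 21 and 16 in TET1-CD libraries. Single FGFR1 transcripts were less steady than these sums: ENST00000356207 had 9, 26 and 22 counts in 3 libraries and 201 in TET1-CD replicate 2. In FGFR4, likewise, ENST00000393648 had 22 counts in TET1-CD replicate 2 and 0 in the other libraries, while the full-length ENST00000292408 had 35 and 40 counts in control and 54 and 50 in TET1-CD libraries.

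**Figure D4:**
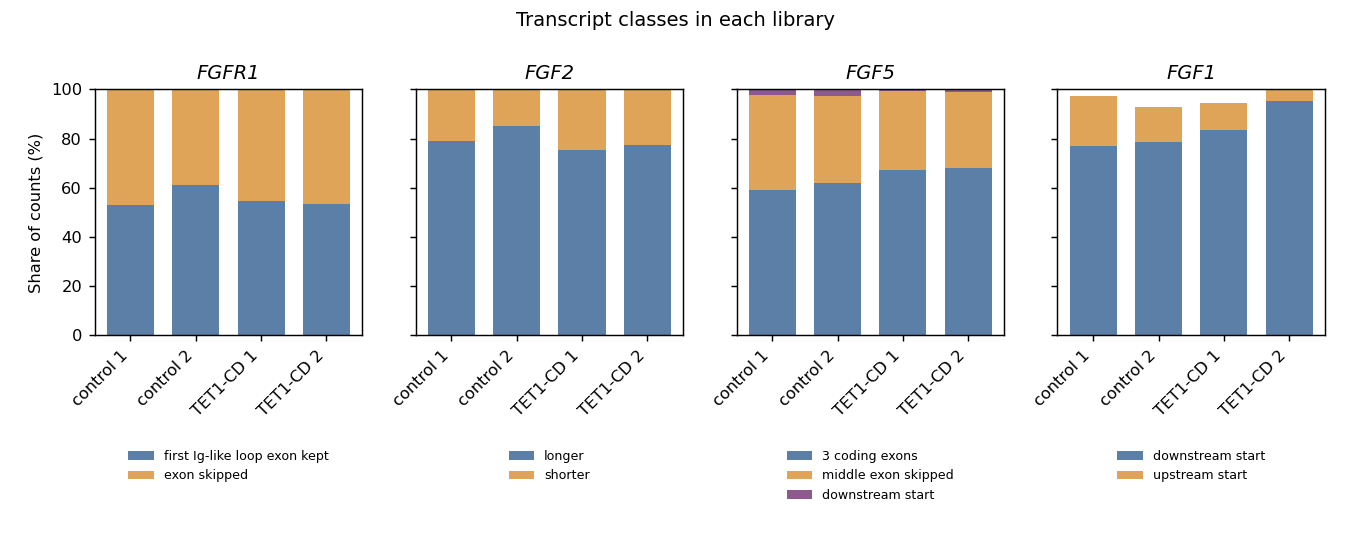
Share of counts (y axis, percent) of transcript classes of FGFR1, FGF2, FGF5 and FGF1 in each of the 4 libraries (x axis); FGFR1 shares are of the 11 long coding transcripts, the others of all counts of the gene. The FGF5 form with 3 coding exons stands at 59.3% and 61.9% in control and at 67.3% and 68.2% in TET1-CD libraries, and FGFR1 shares overlap between the groups.

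The genes that regulate this splicing were measured as well. ESRP1 and ESRP2, the epithelial splicing regulators that favour IIIb, had 12 to 17 and 30 to 52 counts. Of 10 regulators tested, 2 were called, or 20%, a share near the 19.7% of all genes, and both were lower: RBFOX2, with a log2 fold change of -0.26, and HNRNPH1, with -0.21, both adjusted p under 0.05 by edgeR. PTBP1 had a log2 fold change of 0.10 and was not called. RBFOX2 and HNRNPH1 did not pass without TET1-CD replicate 1 (adjusted p = 0.207 and 0.211 by edgeR) or without TET1-CD replicate 2 (adjusted p = 0.136 and 0.279 by edgeR).

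Of the other 19 FGF genes, the secreted ligands were at or near 0. FGF7, FGF18 and FGF20 reached at most 4, 7 and 7 counts in a library, FGF12 at most 6, and the rest at most 1, apart from 3 genes that had enough counts for a test. These 3, FGF11, FGF13 and FGF14, are homologous factors, which stay in the cell, bind sodium channels and do not act on FGF receptors. All 3 passed the test, 2 higher and 1 lower, where 19.7% of all genes were called. FGF14 had 9 and 11 counts in control and 67 and 85 in TET1-CD libraries, a log2 fold change of 2.92 (SE 0.30, adjusted p = 0.000179 by edgeR). It was called whichever library was left out, at 2.66 to 3.18. FGF11 had a log2 fold change of 0.69 (adjusted p = 0.0343 by edgeR), and FGF13 of -0.42 (adjusted p = 0.0344 by edgeR). Neither of them passed under DESeq2 (adjusted p = 0.25 for FGF11 and 0.286 for FGF13 by DESeq2). With 1 library left out, FGF11 passed only without control replicate 2, at 0.96, and was not called at 0.42 to 0.69 without the others. FGF13 passed only without control replicate 1, at -0.50, and was not called at -0.51 to -0.34 without the others.

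The list of genes for FGF-binding and co-receptor proteins also held the kinase gene FAM20C. Of this list, 9 were tested and 2 were called, both lower (22.2%, against 19.7% of all genes called and 9.61% called as lower). FAM20C, a secretory kinase that phosphorylates FGF23, had 2644 and 2386 counts in control and 1444 and 1697 in TET1-CD libraries, a log2 fold change of -0.67 (SE 0.06, adjusted p = 6.01e-05 by edgeR). FLRT2, a membrane protein of a family that binds FGF receptors, had a log2 fold change of -0.74 (SE 0.19, adjusted p = 0.0216 by edgeR), which was not called without control replicate 1, at -0.58, or without TET1-CD replicate 2, at -0.49. L1CAM and CDH2, adhesion proteins reported to interact with FGFR1, had at least 4927 and 3035 counts in every library and were not called. KL and KLB, the co-receptors of the endocrine FGFs, had at most 4 and 8 counts.

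Among the FGF pathway lists, core proteins that carry heparan sulfate had the largest share of calls after the list that holds the homologous factors. Of 10 tested, 7 were called (70.0%), 4 higher and 3 lower, where 19.7% of all genes were called. The lists were chosen with earlier results of these data known, so this order is a description only. HSPG2, which encodes perlecan of the basement membrane, had 204 and 173 counts in control and 358 and 483 in TET1-CD libraries, a log2 fold change of 1.17 (SE 0.12, adjusted p = 0.000155 by edgeR). COL18A1, a basement membrane collagen that carries heparan sulfate, changed by 0.56 and the glypican gene GPC1 by 0.49. AGRN, which encodes agrin, changed by -0.46, with 17295 and 15794 counts in control and 11220 and 12601 in TET1-CD libraries. All 4 were called whichever library was left out. The other 3 calls were SDC3, which was higher, and SDC4 and CD44, which were lower. The median over the 10 was 0.19. Of 16 tested genes that make or edit the chains, 1 was higher and 3 lower (25%, against 19.7% of all genes), with log2 fold changes of -0.42 for B4GALT7, 0.35 for B3GAT3, -0.21 for NDST1 and -0.31 for B3GALT6. NDST1 encodes an enzyme that sulfates the chain, and the others encode enzymes of the linker that joins the chain to its core protein. Without TET1-CD replicate 1 none of these 4 passed, with adjusted p of 0.0672 to 0.332 by edgeR.

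Within the cell, all 30 adaptor and effector genes were tested, and 5 were higher and 1 lower (20%), close to the share of all genes. RPS6KA3, an ERK-activated kinase, changed by 0.44 on the log2 scale (adjusted p = 0.00085 by edgeR) and AKT1 by 0.28. GAB1, a docking protein for PI3 kinase, changed by -0.46. MAPK3 and STAT3 were also higher. AKT1 and GAB1 did not pass without TET1-CD replicate 1 or without TET1-CD replicate 2, with adjusted p up to 0.131 and 0.167 by edgeR, and the value for GAB1 was between -0.59 and -0.34. FRS2, the adaptor next to the receptor, had a log2 fold change of -0.09 and was not called.

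Among the feedback inhibitors, SPRY1, which encodes a Sprouty inhibitor of RAS and ERK signalling, had the widest change. It had 166 and 124 counts in control and 40 and 34 in TET1-CD libraries, a log2 fold change of -1.94 (SE 0.20, 95% interval -2.38 to -1.51, adjusted p = 0.000142 by edgeR), and was called whichever library was left out. SPRY4, of the same Sprouty family, was higher by 0.21, the ERK phosphatase gene DUSP5 by 0.38 and LGALS3, which encodes the lectin galectin-3, by 0.41. SPRY2 and SPRY3 were not called, with values of 0.22 and -0.49, nor was DUSP6, with -0.21. In all 3 were higher and 1 lower of 16 tested (25%, against 19.7% of all genes), and the median was -0.10. DESeq2 called 2 of the list. SPRY4 and DUSP5 did not pass when either TET1-CD library was left out, with adjusted p up to 0.358 and 0.134 by edgeR, and LGALS3 did not pass without TET1-CD replicate 1, at 0.0641.

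Of 17 genes known to respond to FGF or ERK signalling, 5 were lower and 1 higher (35.3%, against 19.7% of all genes). HMGA2, a chromatin protein gene of mesenchymal growth, had 5790 and 4926 counts in control and 3360 and 3690 in TET1-CD libraries, a log2 fold change of -0.59 (SE 0.05, adjusted p = 5.57e-05 by edgeR). The transcription factor genes ETV1 and ETV4, often used as readouts of FGF signalling, changed by -0.53 and -0.41, while ETV5 of the same family had -0.04 and was not called. VGF and CCND1 were also lower. PHLDA2, an imprinted gene that restrains placental growth, was higher by 0.48. The immediate early genes FOS, EGR1 and IER2 were not called, and the median over the 17 was -0.04. On log2 FPKM, ETV1 was not called by limma (adjusted p = 0.0846 and 0.0872 by limma at pseudocounts of 0.1 and 1). Its log2 fold changes there were -0.395 and -0.339. ETV4 did not pass without TET1-CD replicate 1, at an adjusted p of 0.086 by edgeR.

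**Figure D5:**
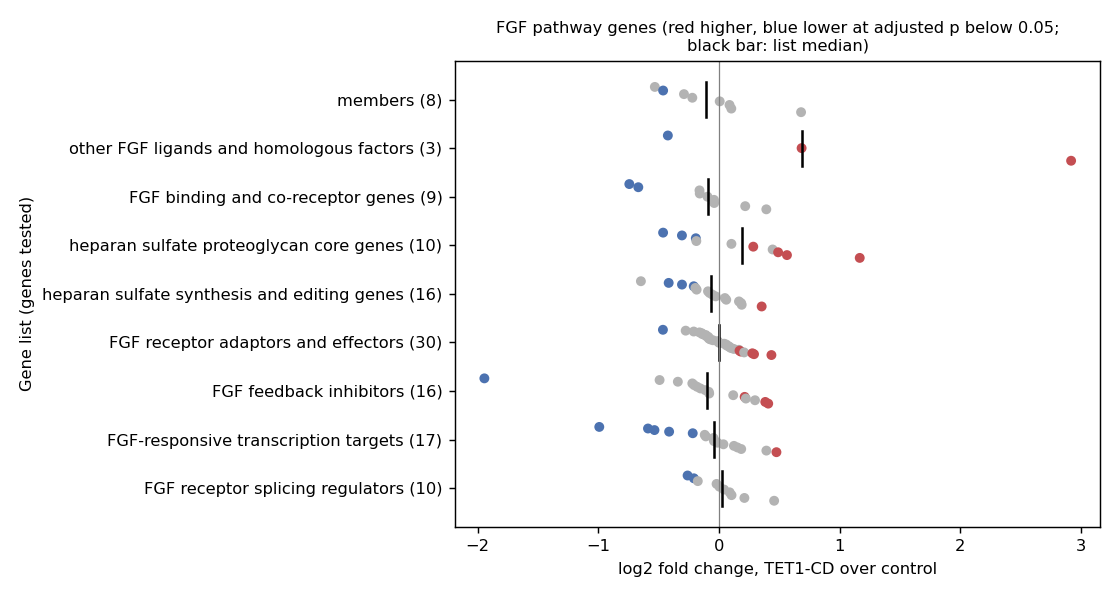
Log2 fold change of TET1-CD over control (x axis) for each tested gene of 9 lists (y axis, number tested in parentheses); red and blue points are higher and lower at an adjusted p below 0.05, grey points are not called and black bars are medians. FGF14 lies at 2.92 and SPRY1 at -1.94, and the medians of the other lists than that of the 3 homologous factors lie between -0.11 and 0.19.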

How the data were processed

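RNA libraries were sequenced on an Illumina instrument by a service provider. For each of 195700 transcripts of 57879 genes, the authors deposited an expected count, an estimated number of fragments that need not be whole, and an FPKM value, on GRCh37. Per the labels, the submitters' processing notes name cutadapt 1.9.1, HISAT2 2.0.1, HTSeq 0.6.1 and DESeq2, and the tool that made the expected counts is not given in the sources used here. Expected counts were summed per gene and rounded. TET1-CD and control libraries were compared with edgeR 4.0.16 (TMM, filterByExpr, quasi-likelihood test, no block) in R 4.3.3, with Benjamini-Hochberg adjustment over 14573 genes or 43213 transcripts. For standard errors, log2 fold changes were divided by the root of edgeR's F. Between genes, splitting of fragments among transcripts and the lengths behind FPKM limit the precision, and low counts widen the intervals.

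The members and gene lists were chosen with earlier results of these data known. Named genes are the 9 members, TET1, up to 4 called genes with the smallest p in each pathway list, and the marker genes with most counts; genes named beside these give a family's other values. The test was tried on simulated data. Alternatives were a replicate block, DESeq2 1.42.0, limma-voom (limma 3.58.1), limma on log2 FPKM with pseudocounts of 0.1 and 1, RLE or no normalization factors, a minimum of 10 counts per library or no filter, and omission of each library. Promoter sequences came from GRCh37 with GENCODE release 44 starts; protein sequences were not used here. The values of some genes that the rule or the comparisons would name are not reported here.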

Additional observations from a re-analysis of the deposited data

How the results depend on the processing

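FGF2 was called as lower in each of the 13 alternatives, and with each library left out its log2 fold change was -0.51 to -0.42. Of the 104 values of the 8 genes under the alternatives, 89 kept their direction and side of the threshold, 8 newly passed it and 7 turned sign. FGFR3, near 0, turned to -0.01 under DESeq2, the replicate block and log2 FPKM with a pseudocount of 0.1, and to -0.0049 with a pseudocount of 1, and ranged from -0.24 to 0.26 with a library left out; FGF5 ranged from -0.03 to 0.21. The number of the 8 genes called was 3 with no filter on low counts (FGF1, FGF2 and FGFR4), 2 with the replicate block (FGF2 and FGFR4) and 1 to 4 with a library left out. All genes called numbered 1472 under DESeq2, 1595 and 1564 with log2 FPKM at pseudocounts of 0.1 and 1, and 832 (without TET1-CD replicate 1) to 3779 (without control replicate 2) against 2865, of which 2819 were also called among the 3235 with the replicate block. Those that also changed by 2-fold numbered 549, or 332 under DESeq2, 332 with 10 counts in every library, 148 with a pseudocount of 1 and 323 to 617 with a library left out. The transcripts called numbered 1, or 2 with library size only, 105 with 10 counts in every library, 0 with the replicate block and 0 with any library left out, none of them from the 9 genes. Under DESeq2, calls fell to 1 in the list of other FGF genes and to 1 (FAM20C) in the binding and co-receptor list. They fell to 1 among the heparan sulfate synthesis genes, 2 among the adaptors and effectors and 2 among the feedback inhibitors. Of the 27 pathway genes that the rule picks, all kept their sign with a library left out, 11 passed in every such fit and 10 did not pass under DESeq2. The causes of these differences were not tested. The replicate numbers are shared between the groups, but deviations of same-numbered libraries correlated at 0.007 over all genes tested and 0.05 over those above the median, so the numbers were not taken to pair them. With 2 libraries per group, the spread of a single gene is poorly known and is borrowed from all genes, and FGFR3 and FGFR4 rest on few counts.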
